A study of Mus musculus with 4 samples.

Results

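The cells described here are the mouse embryonic stem cells (mESC) that carried the most transcripts of 5 target genes of the p53 tumour suppressor. In each of 4 single-cell libraries, cells were ranked by the summed UMIs (unique molecular identifiers, 1 per captured transcript) of Cdkn1a, Mdm2, Ccng1, Phlda3 and Trp53inp1 over all UMIs of the cell. The highest 5% of each library are called high cells, and the lowest 50% by the same share are called low cells. There were 1601 high cells and 15994 low cells among 31989 kept cells of 41142 barcodes. Libraries 1 to 4 held 406, 426, 395 and 374 high cells.

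All samples were E14tg2a.4 cells, a male mESC line, grown with LIF, the cytokine that sustains self-renewal. The paper describes routine growth in medium with serum and a move to serum-free medium before collection. The labels list 2 WT samples and 2 Srrm2 hKO samples from independent experiments. Srrm2 hKO is a heterozygous knockout in which a gene trap truncates 1 copy of Srrm2, the gene of a large spliceosomal and nuclear speckle protein. It was derived from the same parental line, carries no other labelled change and was obtained as a single established line, so features of that line cannot be told apart from the loss of the Srrm2 copy. The deposited matrix joins the 4 libraries and marks each cell only with a library number, which neither the labels nor the files tie to a sample. The libraries are therefore described by number, each as a single culture. No comparison of Srrm2 hKO with WT and no test over libraries was made, and every interval given below is a 95% interval that covers counting error only.

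p53 is a transcription factor that is kept scarce by Mdm2, the ubiquitin ligase that marks it for degradation. When DNA is damaged or the cell is otherwise stressed, p53 accumulates, binds a 20-base response element made of a pair of 10-base half-sites, and switches on genes that halt the cell cycle, repair DNA, start apoptosis or restrain p53 itself. Embryonic stem cells are known for abundant Trp53 mRNA, a short G1 phase and low Cdkn1a. Cdkn1a (chromosome 17, 29090976 to 29100727, GRCm38) encodes the cyclin-dependent kinase inhibitor p21. Mdm2 (chromosome 10, 117688875 to 117710758) and Ccng1 (chromosome 11, 40748552 to 40755311), which encodes cyclin G1, act back on p53. Phlda3 (chromosome 1, 135766119 to 135769136) encodes an inhibitor of Akt signalling, and Trp53inp1 (chromosome 4, 11156431 to 11174379) a nuclear protein of p53-dependent cell death and autophagy.

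The response element was looked for in promoter windows from 250 bases before to 50 bases after each RefSeq start (GRCm38.p6). A match was a pair of adjoining half-sites of the p53 consensus, which reads the same on both strands, with the C and G of both cores and the A or T bases between them intact and at most 1 mismatch elsewhere. It was present in 18 of 32851 windows (0.0548%). Of the 5 genes above, 4 had a window, and Cdkn1a held a match. Of the 52 other p53 targets listed below, 42 had a window, and Rps27l and Gtse1 held a match. The 3 matches are printed because they show the sequence that these genes share, with the element in capitals and its surroundings in lower case. The element lies at chr17:29090928-29090947 for Cdkn1a, 51 to 32 bases before an upstream start, at chr9:66946296-66946315 for Rps27l and at chr15:85859945-85859964 for Gtse1, where it spans the start. All are on the plus strand.
Cdkn1a: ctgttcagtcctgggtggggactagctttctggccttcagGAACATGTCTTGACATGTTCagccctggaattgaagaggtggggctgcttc
Rps27l: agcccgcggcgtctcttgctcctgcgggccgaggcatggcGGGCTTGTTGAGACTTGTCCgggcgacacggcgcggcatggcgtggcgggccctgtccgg
Gtse1: GAGCAAGTTGGGGCTTGCCT
A window without a match says only that these letters are not in it. A single half-site was present in 8.36% of all windows.

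The values that chose the cells are given first, as a description. Over all kept cells the 5 genes summed to 170, 248, 268 and 254 counts per 1000000 UMIs (CPM) in libraries 1 to 4. The cell just inside the highest 5% was at 556.6 CPM and the cell just outside at 556.4 CPM in library 1. The same pairs were 755 and 754 CPM in library 2, 928 and 927 CPM in library 3, and 711 and 710 CPM in library 4. Median shares in high cells were 717, 950, 1469 and 946 CPM, and the highest single cells reached 4297, 3378, 7442 and 3247 CPM. A high cell held a median of 11, 18, 28 and 18.5 UMIs of the 5 genes, and at least 5, 5, 8 and 5. Library 3 had the highest threshold and the longest tail. After all cells were thinned to 5000 UMIs, the variance of the 5-gene count over its mean was 1.88, 2.01, 4.29 and 2.00 in libraries 1 to 4, where counting error alone gives 1, and 1.79, 1.97, 2.62 and 1.86 without keratin-high cells. For Pou5f1, a pluripotency gene that did not choose the cells, the same ratio over all kept cells was 1.11, 1.10, 1.29 and 1.16. For the p53 targets Plk2 and Bax, also outside the choice, it was 1.37, 1.31, 1.86 and 1.42, and 1.12, 1.07, 1.13 and 1.08. These are single genes, and a sum of genes that vary together can have a larger ratio than each alone. Each of the 5 genes contributed. Cdkn1a was at 145, 115, 564 and 143 CPM in high cells and Mdm2 at 159, 287, 326 and 270 CPM.

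The total UMI count is the denominator of the share and so belongs to the rule. High cells had median totals of 14486.5, 17561.5, 17077 and 18850 UMIs, compared with 19089, 22827, 19724 and 22071.5 in low cells. Median mitochondrial shares were 5.36%, 4.44%, 3.83% and 3.29% in high cells and 5.40%, 4.00%, 4.63% and 3.54% in low cells. Cells with more than 2 times the median UMI count of their library, where doublets would be sought, made up 1.48%, 0.235%, 3.29% and 1.34% of high cells and 5.44%, 3.43%, 5.14% and 3.89% of low cells. Between 2 and 4 high cells of each library had a barcode sequence that also occurred in another library.

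Library 3 stood apart, and so did part of its high cells. Cells in the highest 10% of each library by a list of 8 keratin and contractile genes (Krt8, Krt18, Acta1, Acta2, Tagln, Cnn1, Myl9 and Tpm2), called keratin-high cells here, made up 62 of 406 high cells in library 1 (15.3%, exact interval 11.9 to 19.1) and 61 of 426 in library 2 (14.3%, 11.1 to 18.0). They made up 274 of 395 in library 3 (69.4%, 64.6 to 73.9) and 76 of 374 in library 4 (20.3%, 16.4 to 24.8). Among low cells they were 8.70%, 8.29%, 1.85% and 7.02%. The lower limit of keratin-high cells was 117, 186, 879 and 583 CPM of the list in libraries 1 to 4. The name thus marks a rank within each library and not a common level or cell class. Keratin-high cells that were not high cells held 535, 441, 5858 and 2076 CPM of the list. They held 1196, 1232, 631 and 1023 CPM of the core pluripotency genes Pou5f1, Sox2 and Sall4. The main results are therefore also given after the keratin-high cells were left out and high and low cells were chosen again from the rest. The newly chosen high cells held 771, 998, 976 and 969 CPM of the 5 genes. Before, high cells held 817, 1026, 1738 and 1047 CPM, so the level fell most in library 3.

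**Figure D1:**
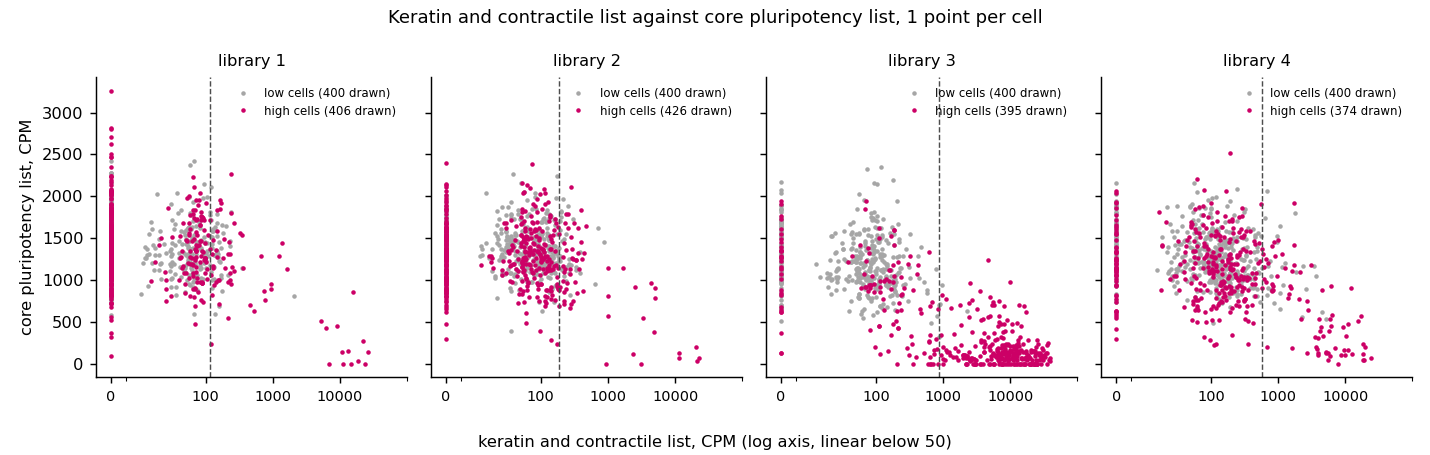
Each point is a cell, with the summed CPM of the keratin and contractile list on the x axis (log scale, linear below 50) and that of the core pluripotency list (Pou5f1, Sox2 and Sall4) on the y axis. Pink points are all high cells, grey points are 400 low cells drawn at random from each library, and the dashed line is the lower limit of the keratin-high cells. In library 3, 274 of 395 high cells lie to the right of the line, most of them low in the core list, whereas in libraries 1, 2 and 4 most high cells overlap the low cells.

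The label of the cells as mESC was checked against the core pluripotency factors Pou5f1, Sox2 and Sall4. Median core list levels in high cells were 1337, 1268, 166 and 1070 CPM in libraries 1 to 4, compared with 1375, 1350, 1185 and 1246 CPM in low cells. By median, high cells of libraries 1, 2 and 4 thus held the core transcripts near the level of low cells, whereas those of library 3 held far fewer. Library 4 also had a part low in the core list. The 10th percentile was 828, 800, 0 and 400 CPM in high cells and 973, 990, 795 and 846 CPM in low cells. In library 4 the 76 keratin-high cells among the high cells were at 632 CPM. In library 3, 59 of 395 high cells had no UMI of the core list, all but 7 of them keratin-high, compared with 4, 2 and 1 in libraries 1, 2 and 4. Those 59 cells carry no evidence of their mESC label in these genes. Within the high cells of library 3, the core list was at 198 CPM in the 274 keratin-high cells and at 868 CPM in the other 121 cells. The 5-gene sum, which chose the cells, was 1794 and 1562 CPM in the same groups, and the 52 other p53 targets described below, which did not, were at 5065 and 4730 CPM. The 516 other keratin-high cells of library 3, which were not high cells, were at 631 CPM for the core list and 409 CPM for the 5 genes. For the 52 other targets they were at 3944 CPM, above the 2276 CPM of low cells and below both groups of high cells. Of these targets, Plk2, Btg2 and Perp were at 55.9, 67.7 and 121 CPM in them, compared with 2.05, 7.71 and 6.11 CPM in low cells.

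Markers of other lineages were counted in both classes, with and without the keratin-high cells. The 7 fibroblast markers summed to 13.1, 10.6, 187 and 16.7 CPM in high cells and to 1.60, 4.81, 1.63 and 4.98 CPM in low cells. With keratin-high cells left out, the high cells were at 0.881, 3.96, 14.6 and 4.00 CPM. Of the fibroblast markers with most counts, Col1a2, a collagen chain, was at 8.19, 1.64, 84.5 and 4.63 CPM in high cells and Thy1 at 0.927, 3.40, 0.400 and 3.54 CPM. The 6 primitive endoderm markers summed to 3.09, 3.15, 46.8 and 15.5 CPM in high cells and to between 1.22 and 2.48 CPM in low cells. Without keratin-high cells the endoderm list was at 1.76, 1.70, 7.96 and 4.46 CPM in high cells, and its log2 ratio in library 3 was still 2.35 (1.84 to 2.85). Dab2, an endocytic adaptor of endoderm, was at 36.1 CPM in high cells of library 3 and Gata6, an endoderm transcription factor, at 6.26 CPM. The 8 primed or primitive streak markers summed to 4.48, 8.30, 41.6 and 14.0 CPM in high cells, most of it Wnt3 in library 3 (35.3 CPM), and the other of the pair with most counts, Eomes, stayed between 0.773 and 3.73 CPM. Without keratin-high cells the log2 ratios of the streak list were -0.26, 0.53, 2.53 and 0.65. The 7 trophectoderm markers summed to 77.3, 65.5, 75.4 and 51.6 CPM in high cells and 48.4, 45.8, 37.9 and 29.8 CPM in low cells. Tfap2c, at 67.7, 56.4, 14.8 and 29.3 CPM in high cells, gave most of the sum in libraries 1, 2 and 4. In library 3 most of it was Krt7, which was at 7.42, 5.03, 41.2 and 13.9 CPM. The log2 ratios of Tfap2c were 0.59, 0.42, -1.21 and 0.31, so in library 3 it was lower in high cells although the list sum was higher. The trophectoderm list did not follow the keratin-high cells in libraries 1 and 2, with log2 ratios of 0.67, 0.52, 0.99 and 0.79 over all kept cells and 0.65, 0.55, 0.62 and 0.34 without them. The 8 two-cell-like markers held 2, 10, 0 and 3 counts in high cells. The part of these cells in the results was not tested beyond leaving the keratin-high cells out.

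The 5 genes were set against each other by holding each out. Cells were chosen again by the other 4 genes, and the held-out gene, which then had no part in the choice, was compared between the new high and low cells. Each held-out gene was higher in high cells of every library. Cdkn1a was at 107 CPM in high and 23.0 CPM in low cells of library 1, a log2 ratio of 2.23 (2.10 to 2.35), and its log2 ratios in libraries 2 to 4 were 2.39, 4.76 and 3.42. The log2 ratios of Mdm2 were 2.45, 2.74, 3.47 and 2.81, and those of Ccng1 2.26, 1.99, 2.91 and 1.84. Phlda3 had 3.31, 2.58, 3.91 and 2.33, and Trp53inp1 had 2.96, 2.75, 3.03 and 2.69. Over all kept cells Cdkn1a differed most between libraries, and Trp53inp1 least. Without keratin-high cells the Cdkn1a values were 2.00, 2.29, 2.95 and 2.82, with library 3 then beside library 4, and those of Trp53inp1 were 2.91, 2.84, 3.08 and 2.81. Phlda3 then had the widest range, at 3.29, 2.56, 3.16 and 2.29. The cells chosen by 4 genes shared between 78.2% (Mdm2 held out, library 2) and 94.4% (Trp53inp1 held out, library 3) of the high cells.

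**Figure D2:**
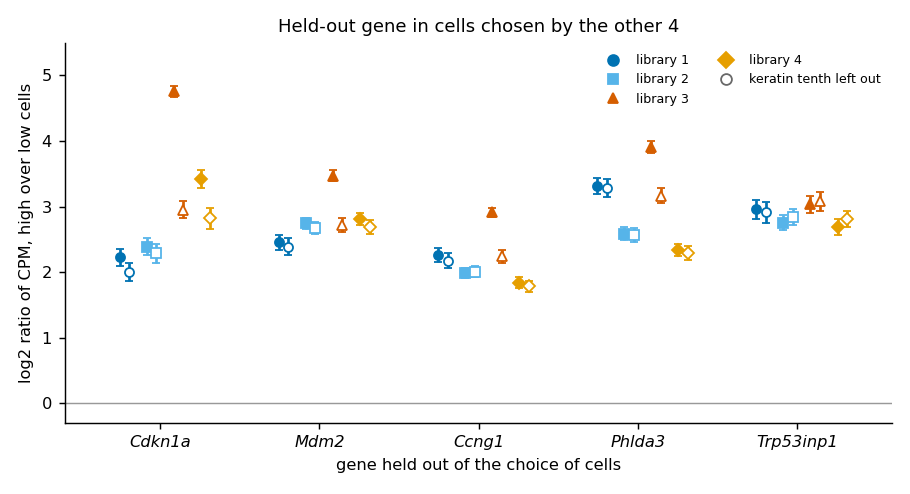
The y axis gives the log2 ratio of CPM of each gene in high over low cells when the cells were chosen by the other 4 genes, with 95% intervals of counting error. Filled symbols are all kept cells and open symbols the cells left after keratin-high cells were removed. The lowest point is at 1.78 (Ccng1, library 4, without keratin-high cells), and the largest shift is that of Cdkn1a in library 3, from 4.76 to 2.95.

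Other p53 targets, which had no part in the choice, were higher in the high cells of every library. The list of 52 genes summed to 3529, 4361, 4984 and 4405 CPM in high cells and to 2100, 2824, 2276 and 2932 CPM in low cells. The log2 ratios were 0.75 (0.73 to 0.77), 0.63 (0.61 to 0.64), 1.13 (1.11 to 1.15) and 0.59 (0.57 to 0.60), and without keratin-high cells 0.70, 0.60, 0.80 and 0.55. The summed level rose stepwise over 4 classes of the 5-gene share. In library 2 it was 2824 CPM in the lowest 50%, 3189 CPM from 50 to 80%, 3674 CPM from 80 to 95% and 4361 CPM in the highest 5%. In library 3 the same classes were at 2276, 2683, 3503 and 4984 CPM, and without keratin-high cells at 2231, 2486, 2931 and 3883 CPM. Trp53 itself did not follow. It was at 387, 379, 214 and 318 CPM in high cells and at 372, 427, 392 and 360 CPM in low cells, and without keratin-high cells its log2 ratios lay between -0.16 (library 2) and 0.14 (library 1).

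**Figure D3:**
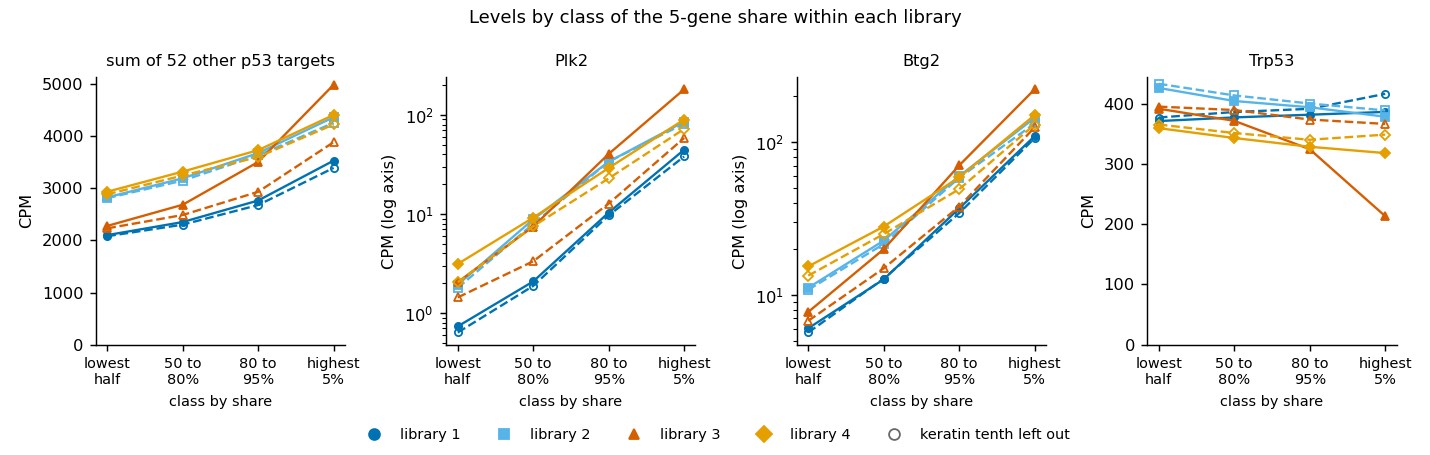
Levels in CPM of the summed 52 other p53 targets, of Plk2, of Btg2 and of Trp53 are drawn against 4 classes of the 5-gene share, with a log axis for Plk2 and Btg2. Solid lines with filled symbols are all kept cells and dashed lines with open symbols the cells left without keratin-high cells. The summed targets, Plk2 and Btg2 rise at every step in every library, whereas Trp53 stays between 318 and 433 CPM except among all kept high cells of library 3 (214 CPM).

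Counts of targets were read against all genes. A gene is called higher or lower here if high and low cells differed by 1.5-fold or more, one way in all 4 libraries, and if each library held 200 or more of its counts in these cells. Of 10031 genes tested outside the 5, 360 (3.59%) were called higher and 47 (0.469%) lower. Of the 52 targets, 44 reached the count minimum, 23 were called higher and 0 lower. Targets such as Plk2 and Ptpn14 reached the minimum only through high cells. With the minimum set on low cells alone, 42 targets passed and 21 were called higher, beside 3.22% of 9857 genes (0.467% lower). With no filter, 30 of the 52 differed at least 1.5-fold upward in every library and 0 downward, beside 8.76% (0.512% lower) of 14658 genes with a count in each class. As a description only, since the minimum bears on which targets it covers, the median log2 ratio over the 44 targets was 0.98, 0.83, 1.11 and 0.86 in libraries 1 to 4, and over all genes tested 0.00, -0.07, 0.01 and -0.04.

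Among targets that act on the cell cycle, 5 of 12 were called higher (Btg2, Plk2, Gtse1, Ptpn14 and Psrc1), 6 others passed the count minimum without a call and Rprm did not pass. With the minimum on low cells alone, 3 of the 9 that passed were called (Btg2, Gtse1 and Psrc1), beside the 3.22% of all genes given above. Without keratin-high cells Ptpn14 fell under the minimum and Sesn2 was called. Plk2 (chromosome 13, 110395046 to 110400844), a polo-like kinase, was at 44.5, 85.4, 181 and 89.8 CPM in high cells and at 0.734, 1.94, 2.05 and 3.13 CPM in low cells. Its log2 ratios of 5.92 (5.52 to 6.34), 5.46, 6.46 and 4.84 were the largest of any listed target that reached the minimum, and without keratin-high cells they were 5.90, 5.51, 5.35 and 5.14. Btg2 (chromosome 1, 134075170 to 134079120), an antiproliferative co-regulator of transcription, was at 109, 144, 222 and 150 CPM in high cells and at 6.03, 11.1, 7.71 and 15.3 CPM in low cells, with log2 ratios of 4.18, 3.70, 4.84 and 3.29, and 4.23, 3.62, 4.21 and 3.29 without keratin-high cells. Plk2 transcripts were spread over many cells. The 20 high cells richest in Plk2 held 30.6%, 20.8%, 17.6% and 24.7% of its UMIs in high cells. Ptpn14, a phosphatase that restrains YAP, had log2 ratios of 3.54, 3.09, 3.98 and 1.89, and the microtubule-associated Psrc1 had 1.44, 1.26, 1.12 and 1.16. Gtse1, which carries the response element printed above at its start, had 0.95, 0.88, 0.89 and 1.00. Sfn, a 14-3-3 protein, was not called and depended on keratin-high cells, with log2 ratios of 1.72, 0.40, 2.20 and 0.92 over all kept cells and 0.76, -0.38, 1.05 and -0.05 without them. Gadd45a, a stress sensor, was at 60.4, 30.4, 67.3 and 29.4 CPM in high and 66.8, 38.0, 55.1 and 31.7 CPM in low cells and was not called.

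Of 15 targets that act in cell death, 8 were called higher (Perp, Apaf1, Eda2r, Bbc3, Pidd1, Tnfrsf10b, Zmat3 and Ei24), beside 3.59% of all genes tested. The same 8 were called without keratin-high cells and with the minimum on low cells alone. With no filter, 10 of the 15 differed by 1.5-fold or more upward, as did 10 of the 15 targets in metabolism and other roles, beside 8.76% of all genes without the filter. Perp (chromosome 10, 18845020 to 18857073), a membrane protein of desmosomes and apoptosis, was at 35.7, 48.3, 246 and 60.4 CPM in high cells and 2.70, 4.32, 6.11 and 7.40 CPM in low cells. Its log2 ratio was largest in library 3 (5.33, and 4.09 without keratin-high cells). Bbc3, which encodes the BH3-only protein PUMA, was at 82.2, 68.1, 65.7 and 84.6 CPM in high and 16.2, 18.2, 20.2 and 26.6 CPM in low cells. Over all kept cells its level in high cells was thus lowest in library 3. Apaf1, the scaffold of the apoptosome, had log2 ratios of 1.93, 1.93, 2.68 and 2.10, and 1.87, 1.88, 2.07 and 1.97 without keratin-high cells. The death receptor genes Eda2r and Tnfrsf10b had 2.05, 1.73, 2.85 and 2.10, and 1.20, 1.32, 2.29 and 1.16. Pidd1, a death domain adaptor, had 1.55, 1.41, 1.85 and 1.27, the RNA-binding Zmat3 1.63, 1.24, 2.03 and 1.00, and Ei24, a protein of the endoplasmic reticulum, 0.82, 0.80, 1.19 and 0.83. The members with most counts differed less. Bax, the pore-forming effector of apoptosis, was at 628, 687, 557 and 569 CPM in high and 511, 605, 556 and 525 CPM in low cells. Rps27l, a ribosomal protein paralog with the element printed above, was at 1066, 1706, 1564 and 1769 CPM in high and 755, 1304, 843 and 1463 CPM in low cells, and the exonuclease gene Aen had log2 ratios of 1.00, 0.53, 0.84 and 0.55. Their ratios exceeded 0 in every library without all reaching 1.5-fold, Bax in library 3 by less than its counting error. Pmaip1 and Fas did not reach the minimum. Fas, a death receptor, had 12, 25, 204 and 38 counts in high cells and 3, 12, 9 and 10 in low cells.

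**Figure D4:**
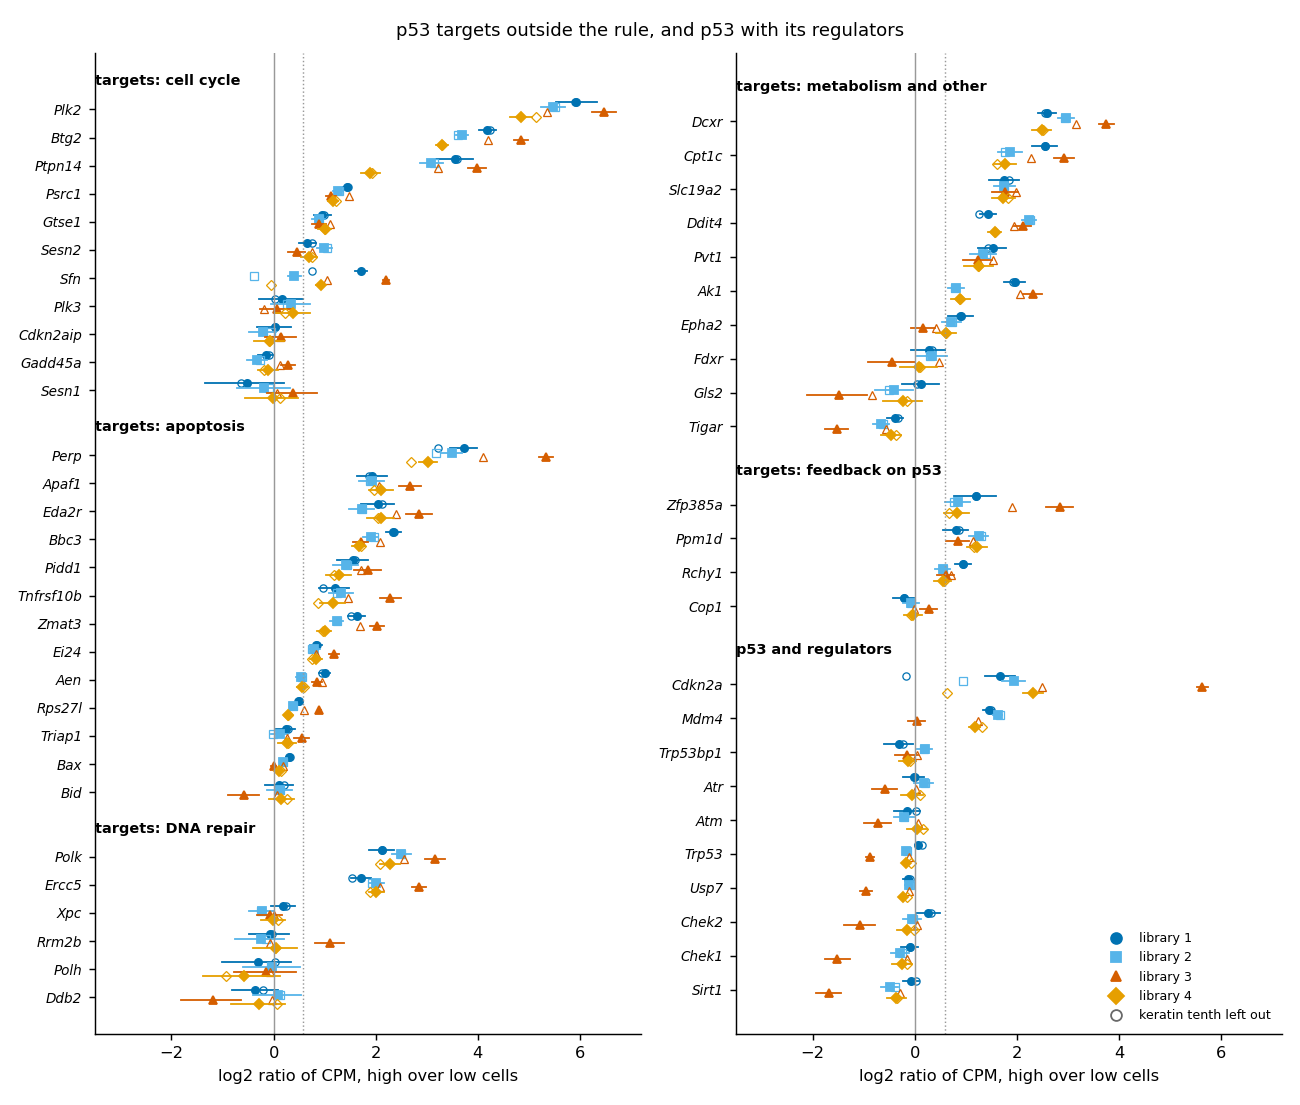
The x axis gives the log2 ratio of CPM in high over low cells for every p53 target outside the rule, and for p53 and its regulators, that reached 200 counts in every library, with 95% intervals of counting error on the filled symbols. Filled symbols are all kept cells, open symbols the cells left without keratin-high cells, the solid line marks no difference and the dotted line 1.5-fold. Among the filled symbols of the targets, those of Plk2, Btg2 and Perp lie farthest to the right in every library. Cdkn2a, a regulator, moves from 5.63 to 2.49 in library 3 when keratin-high cells are removed.

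Of the 6 repair targets, Polk and Ercc5 were called higher, beside 3.59% of all genes tested. Polk, a polymerase that copies past damaged bases, was at 27.7, 40.6, 53.2 and 39.7 CPM in high and 6.38, 7.17, 5.96 and 8.21 CPM in low cells. Ercc5, the XPG nuclease of nucleotide excision repair, had log2 ratios of 1.71, 2.01, 2.85 and 2.01. Without keratin-high cells the log2 ratios were 2.12, 2.49, 2.55 and 2.07 for Polk and 1.53, 1.92, 2.08 and 1.88 for Ercc5. The damage sensor Xpc, by contrast, stayed between -0.23 and 0.19, and Ddb2, Rrm2b and Polh were not called. Of 15 targets in metabolism and other roles, 6 were called higher (Dcxr, Cpt1c, Slc19a2, Ddit4, Pvt1 and Ak1), 4 passed without a call and 5 did not pass, beside the same 3.59%. Dcxr, a carbonyl reductase, was at 63.2, 71.2, 113 and 47.2 CPM in high and 10.5, 9.14, 8.36 and 8.40 CPM in low cells. Ddit4, an inhibitor of mTORC1, had log2 ratios of 1.44, 2.24, 2.11 and 1.56. Slc19a2, a thiamine transporter, had 1.75, 1.76, 1.77 and 1.73, the most even of the called targets over all kept cells. Cpt1c, a carnitine palmitoyltransferase, had 2.55, 1.87, 2.93 and 1.78, the long noncoding RNA Pvt1 1.53, 1.34, 1.23 and 1.26, and the adenylate kinase gene Ak1 1.96, 0.81, 2.31 and 0.89. Tigar, which restrains glycolysis, went the other way without being called, at 56.7, 44.0, 21.3 and 31.7 CPM in high and 74.0, 69.7, 61.5 and 43.8 CPM in low cells, and Epha2, a receptor kinase, had 0.90, 0.72, 0.17 and 0.61. Among members under the minimum, Zfp365, a gene of genome stability, had 127, 332, 283 and 295 counts in high and 60, 289, 130 and 322 in low cells, with log2 ratios of 4.81, 3.89, 4.63 and 3.45.

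Genes that act back on p53 and genes that regulate it behaved unevenly. Of 4 further targets that act back on p53, Ppm1d and Zfp385a were called higher, beside 3.59% of all genes tested. Ppm1d, the phosphatase that removes activating marks from p53, was at 25.2, 36.5, 26.4 and 35.7 CPM in high and 14.4, 15.3, 14.7 and 15.3 CPM in low cells. The zinc finger gene Zfp385a had 1.20, 0.84, 2.84 and 0.82. The ubiquitin ligase genes Rchy1 and Cop1 were not called, with 0.95, 0.55, 0.61 and 0.55 for Rchy1 and values between -0.22 and 0.28 for Cop1. Of the 12 genes listed as p53 and its regulators, 10 reached the minimum and Cdkn2a alone was called, beside the same 3.59%. Cdkn2a (chromosome 4, 89274471 to 89294653), the gene of p16 and of ARF, which blocks Mdm2, was at 19.2, 26.7, 506 and 42.6 CPM in high and 5.99, 6.93, 10.2 and 8.56 CPM in low cells. Its signal followed the keratin-high cells in part. Without them it was at 5.29, 13.7, 58.2 and 12.9 CPM in high cells and was not called. These levels still exceeded the low-cell values above in libraries 2, 3 and 4, but not in library 1. Mdm4, the partner of Mdm2 that masks p53, did the opposite. It was at 122, 150, 41.4 and 102 CPM in high and 44.7, 48.5, 40.2 and 45.4 CPM in low cells, and without keratin-high cells at 128, 157, 94.4 and 114 CPM in high cells, when it was called. Sirt1, a deacetylase of p53, and Usp7, a deubiquitinase of Mdm2 and p53, were not called, with log2 ratios of -0.07, -0.49, -1.68 and -0.36 and of -0.14, -0.12, -0.96 and -0.22.

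Over all genes, the 15 called higher with the largest smallest ratio were Cryab, Acta2, Plk2, Ddit4l, Anxa1, Btg2, Anxa3, Perp, Krt18, Krt8, Serpine2, Cald1, 9230114K14Rik, Dcxr and Arap2. The ranking is a description, since Cryab, Acta2, Plk2, Anxa1, Anxa3 and Serpine2 held under 200 counts in the low cells of at least 1 library and reached the minimum there through high cells. The leading genes differed in how their UMIs were spread over high cells. Acta2 (chromosome 19, 34241090 to 34255590), smooth muscle actin, was at 88.4, 42.3, 1961 and 133 CPM in high and 0.0816, 0.525, 2.97 and 4.13 CPM in low cells. The 20 high cells richest in Acta2 held 100%, 100% and 98.9% of its UMIs in libraries 1, 2 and 4 and 39.6% in library 3, so outside library 3 nearly all of its level rests on 20 cells. For Cryab, a small heat shock protein, these shares were 92.4%, 96.3%, 18.6% and 82.6%. The keratin genes Krt8 and Krt18 and the annexin genes Anxa1 and Anxa3 were concentrated in the same way. Without keratin-high cells, Acta2, Cryab, Krt8, Krt18, Anxa1 and Anxa3 were not called. Acta2, Krt8 and Krt18 belong to the list that defines the cells left out. Cryab lost its call only because it fell under the count minimum, and its log2 ratios were still 2.67, 2.56, 4.77 and 1.51. Ddit4l, an inhibitor of mTORC1 related to Ddit4, was spread more widely, at 49.8, 60.9, 65.3 and 54.3 CPM in high and 2.69, 3.74, 2.97 and 3.87 CPM in low cells, with 27.9%, 19.8%, 26.5% and 20.6% of its UMIs in 20 cells. Serpine2, a secreted protease inhibitor, had log2 ratios of 4.68, 3.67, 6.22 and 2.81. Cald1, the actin-binding caldesmon, had 3.28, 3.66, 5.42 and 2.79, Arap2, a GTPase regulator, 3.07, 2.82, 3.72 and 2.48, and the transcript 9230114K14Rik 2.83, 2.65, 3.46 and 2.92. Without keratin-high cells Cald1 was still called but no longer among the leading 15, with 2.34, 2.76, 2.97 and 1.58, whereas Serpine2 had 4.75, 3.74, 5.19 and 2.89 and Arap2 3.03, 2.77, 3.25 and 2.49.

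Without keratin-high cells, 258 genes of 9783 were called higher (2.64%) and 28 lower (0.286%). Of the 360 and 258 genes called higher, 214 were shared, 59.4% of the first list and 82.9% of the second. The 15 that led were Plk2, Ddit4l, Btg2, Serpine2, Eng, 9230114K14Rik, Perp, D630023F18Rik, Dcxr, Azin2, Arap2, Ptp4a3, Klhl26, Frs3 and Sdc4. Of these, Plk2, Serpine2, Eng, Perp, D630023F18Rik and Klhl26 reached the minimum in at least 1 library through high cells. Eng, the TGF-beta co-receptor endoglin, was then at 26.8, 33.1, 22.4 and 24.9 CPM in high and 3.39, 4.66, 2.40 and 3.68 CPM in low cells. Sdc4, a cell surface proteoglycan, was at 154, 264, 130 and 220 CPM in high and 19.7, 35.5, 22.2 and 45.3 CPM in low cells, and the phosphatase gene Ptp4a3 at 77.9, 103, 58.6 and 79.4 CPM and 8.86, 14.2, 10.7 and 14.5 CPM. Library 3 was the lowest of the 4 in high cells for all 3 of these genes.

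Genes lower in high cells were fewer and differed less. The 15 with the largest smallest ratio were Fgf17, Gna14, Grrp1, Hpdl, Pax6, Chac1, Gpt2, Tgm3, Gm10522, Aass, Slfn8, Cdhr1, Ddx58, Aldh1b1 and Slfn9. Fgf17 (chromosome 14, 70636203 to 70642268), a fibroblast growth factor, was at 9.27, 8.18, 3.60 and 6.80 CPM in high and 22.9, 36.8, 22.8 and 21.1 CPM in low cells, with log2 ratios of -1.30, -2.17, -2.67 and -1.64, and -1.11, -2.02, -1.41 and -1.54 without keratin-high cells. Chac1, a glutathione-degrading enzyme of the amino acid stress response, was at 9.27, 1.76, 7.06 and 8.03 CPM in high and 25.7, 7.49, 15.3 and 15.3 CPM in low cells. Gpt2, an alanine aminotransferase, was at 16.8, 8.56, 10.5 and 9.93 CPM in high and 36.2, 18.7, 29.6 and 18.2 CPM in low cells, and Ddx58, which encodes the RNA sensor RIG-I, at 28.0, 21.4, 12.7 and 10.9 CPM and 47.1, 38.6, 45.3 and 22.3 CPM. Of the 47 and 28 genes called lower, 20 were shared, 42.6% and 71.4%. Fgf17, Chac1, Gpt2 and Ddx58 were called in both. Of the leading genes, Gm10522, Aass, Slfn8 and Cdhr1 were called only when keratin-high cells were kept. Sp5, a target of Wnt signalling, and Herpud1, a protein of endoplasmic reticulum stress, were called only when they were left out.

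Since Cdkn1a halts the cell cycle, S and G2/M transcripts were compared. The 14 S genes summed to 2287, 2436, 993 and 2307 CPM in high and 2407, 2753, 2404 and 2696 CPM in low cells. The log2 ratios were -0.07 (-0.10 to -0.05), -0.18, -1.28 and -0.22. The 14 G2/M genes had -0.15, -0.17, -1.30 (-1.33 to -1.27) and -0.26. High cells of library 3 alone thus held much less of both lists. With keratin-high cells left out and both classes chosen again, library 3 was near the others. Its log2 ratios were then -0.16 for S genes and -0.15 for G2/M genes. Libraries 1, 2 and 4 had -0.02, -0.15 and -0.12 for S genes and -0.12, -0.13 and -0.19 for G2/M genes. The 121 original high cells of library 3 that were not keratin-high remained lower. They held 1886 CPM of S genes and 2332 CPM of G2/M genes, compared with 2404 and 3256 CPM in low cells. In libraries 1, 2 and 4 such cells held 2364, 2467 and 2494 CPM of S genes. No gene of either list was called. The replication helicase subunit gene Mcm3 was at 283, 271, 97.2 and 254 CPM in high and 305, 306, 305 and 276 CPM in low cells, the chromatin remodeller gene Hells had log2 ratios of -0.25, -0.39, -1.76 and -0.38, the ubiquitin-conjugating gene Ube2c -0.13, -0.08, -1.46 and -0.25, and the topoisomerase gene Top2a -0.28, -0.27, -1.63 and -0.35. Cells in the lowest 5% by the summed S and G2/M lists were among the high cells more often than the 5% of all cells, at 66 of 406 in library 1 (16.3%, 12.8 to 20.2), 79 of 426 (18.5%, 14.97 to 22.57), 248 of 395 (62.8%, 57.8 to 67.6) and 86 of 374 (23.0%, 18.8 to 27.6). The 8 replication stress and repair partners had list ratios of -0.10, -0.13, -1.14 and -0.17, and -0.08, -0.08, -0.12 and -0.08 without keratin-high cells, with Brca2 at -0.39, -0.46, -1.84 and -0.38 and the ribonucleotide reductase gene Rrm1 at -0.09, -0.07, -0.54 and -0.18.

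Most G1 regulators were lower in high cells. Of 9 listed G1 cyclins and Cdk inhibitors, 7 reached the minimum, of which 5 were below 0 in every library and 1 was above. The list had log2 ratios of -0.22, -0.38, 0.60 and -0.21, and -0.34, -0.41, -0.15 and -0.32 without keratin-high cells. Ccne1, cyclin E1, which drives entry into S phase, was at 71.7, 150, 41.8 and 149 CPM in high and 104, 251, 145 and 232 CPM in low cells, with log2 ratios of -0.54, -0.74, -1.80 and -0.64 that did not all reach 1.5-fold, and -0.51, -0.75, -0.64 and -0.53 without keratin-high cells. Ccnd1, cyclin D1, had -0.38, -0.34, -1.10 and -0.41. Cdkn1c, the inhibitor p57, was called higher, with 1.35, 0.85, 2.92 and 1.05, but was not called without keratin-high cells (0.28, 0.69, 0.97 and 0.71).

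Pluripotency transcripts differed by library. The naive panel of 10 genes summed to 1673, 1024, 355 and 536 CPM in high and 1681, 1579, 1433 and 992 CPM in low cells. Its log2 ratio was -0.01 in library 1, -0.63 in library 2, -2.01 in library 3 and -0.89 in library 4. Without keratin-high cells it was 0.10, -0.50, -0.27 and -0.76, so high cells of libraries 2, 3 and 4 were still lower in naive transcripts and those of library 1 were not. Zfp42 (Rex1), a naive marker, was at 486, 351, 101 and 205 CPM in high and 521, 588, 476 and 438 CPM in low cells, and the transcription factor gene Klf2 at 523, 318, 103 and 148 CPM and 553, 479, 474 and 265 CPM. The formative panel had log2 ratios of -0.17, -0.04, -1.29 and -0.28, and -0.16, -0.04, -0.19 and -0.08 without keratin-high cells. The DNA methyltransferase gene Dnmt3b had -0.33, -0.17, -1.48 and -0.33 and the chromatin factor gene Utf1 -0.19, -0.16, -1.78 and -0.39. No gene of these panels or of the core list was called. Sox2 had 0.03, -0.09, -1.55 and -0.25, and Pou5f1 -0.11, -0.11, -1.85 and -0.24, which without keratin-high cells became -0.05, -0.09, -0.18 and -0.09.

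**Figure D5:**
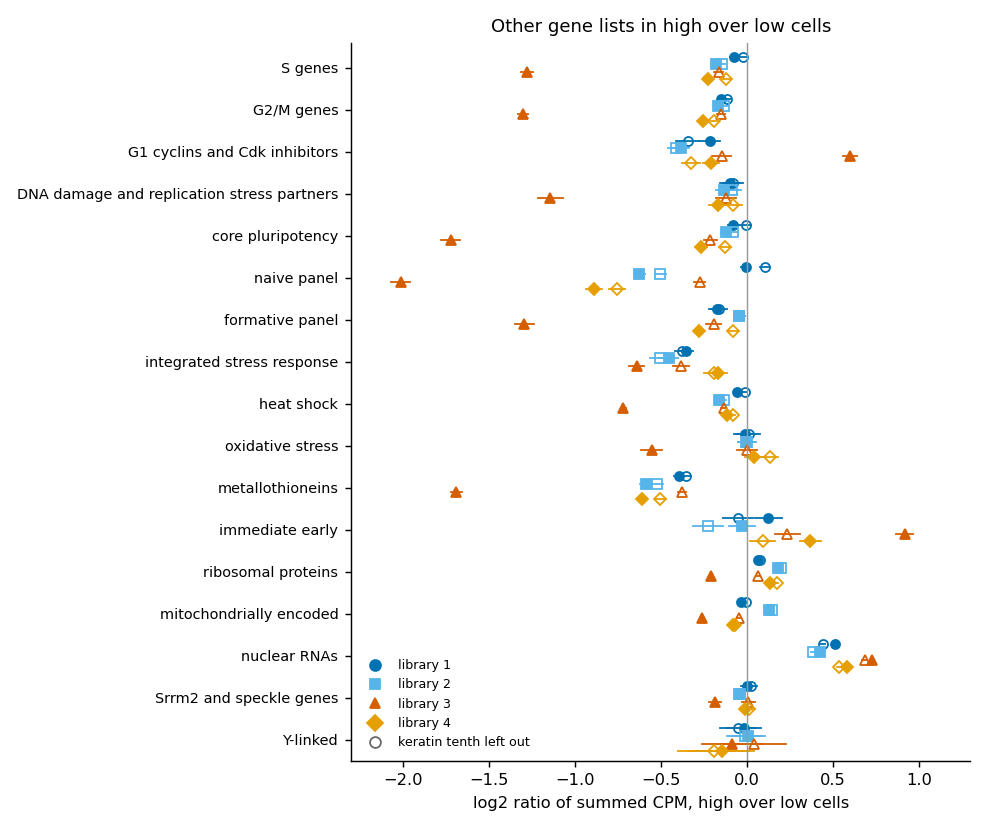
The x axis gives the log2 ratio of the summed CPM of each list in high over low cells, with 95% intervals of counting error. Filled symbols are all kept cells and open symbols the cells left without keratin-high cells. The filled symbols of library 3 lie farthest to the left for the S, G2/M, core, naive and formative lists, and its open symbols lie at -0.16, -0.15, -0.21, -0.27 and -0.19.

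No list of another stress programme was higher in high cells of every library. The integrated stress response genes, which ATF4 drives, had list ratios of -0.35, -0.45, -0.64 and -0.17, and -0.38, -0.50, -0.38 and -0.19 without keratin-high cells. Of 8 that reached the minimum, Chac1 was called lower, beside 0.469% of all genes tested. Asns, asparagine synthetase, was at 408, 107, 185 and 101 CPM in high and 524, 167, 338 and 124 CPM in low cells, and Psat1, a serine synthesis enzyme, had -0.59, -0.80, -1.43 and -0.36. Sesn2, which is listed both here and among p53 targets, went upward, with 0.66, 0.99, 0.45 and 0.70, and was called without keratin-high cells (0.76, 1.04, 0.75 and 0.76). The heat shock list had -0.06, -0.16, -0.72 and -0.11, and -0.01, -0.13, -0.13 and -0.08 without keratin-high cells, with Hspa8 between -0.22 and 0.17 and Hsp90aa1 at -0.11, -0.23, -1.09 and -0.27. The oxidative stress list, which NRF2 drives, had -0.01, 0.00, -0.55 and 0.04, and 0.01, 0.00, 0.00 and 0.13 without keratin-high cells, with Gclm at -0.23, -0.20, -1.02 and -0.18 and Txnrd1 at 0.13, 0.12, -0.39 and 0.20. The metallothioneins Mt1 and Mt2, which bind zinc, had a list ratio of -0.39, -0.59, -1.69 and -0.61, and -0.35, -0.52, -0.38 and -0.50 without keratin-high cells. High cells made up 10 of 406 (2.46%), 15 of 426 (3.52%), 5 of 395 (1.27%) and 13 of 374 (3.48%) of the cells in the highest 5% by metallothioneins. By the rule they made up 5% of all kept cells. The exact upper bounds of these shares, which cover counting error only, were 4.48%, 5.74%, 2.93% and 5.87%. The immediate early list had 0.13, -0.03, 0.92 and 0.37, and -0.05, -0.22, 0.23 and 0.09 without keratin-high cells. Among its genes Jun was called higher, with 2.15, 2.04, 3.95 and 1.51, and Ier2 and Junb were not, with -0.13, -0.55, -0.58 and -0.30 and with 0.15, 0.55, 1.33 and 0.86. Without keratin-high cells Jun did not reach the minimum and Egr1 was called.

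Srrm2 (chromosome 17, 23790532 to 23824741), the gene targeted in the study, was level between the classes. It was at 384, 521, 231 and 339 CPM in high and 386, 529, 238 and 356 CPM in low cells. Its log2 ratios were 0.00 (-0.06 to 0.05), -0.02, -0.05 and -0.07, far smaller than the differences between libraries.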

How the data were processed

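Single-cell 3′ transcriptomes were measured in 4 samples. The authors aligned the reads to mm10 with Cell Ranger 6.1.2 and joined the libraries with its aggregation step, which evens out depth by subsampling reads. The deposited values are raw UMI counts per gene and barcode (32285 genes). Kept cells had UMIs and detected genes at or above their library's mean minus 1 SD and at most 10% mitochondrial counts. Kept cells held 166839268, 200180473, 172407338 and 174050451 UMIs in libraries 1 to 4. Counts were summed over high and over low cells of each library and scaled to CPM (Python 3.11.15, numpy 2.4.6, scipy 1.17.1). Intervals are exact 95% binomial (Clopper-Pearson for shares), cover counting error only and omit the spread between cells and cultures. No test was made, since libraries are not tied to samples and cells are not replicates. The ratio, interval and calling steps were tested on simulated summed counts of each class. The choice of cells and the spread between cells were not simulated. The named genes were the 5 rule genes, Srrm2, called members of each list with the 2 or 3 of most counts, and the 15 called genes in each direction with the largest smallest ratio. The cells and lists were chosen with earlier results of these data known. Free RNA in droplets was not removed, no doublet caller was run, and positions are from GENCODE M21 (GRCm38). Genes with near-identical copies can share reads.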

Additional observations from a re-analysis of the deposited data

How the results depend on the processing

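No paired analysis was possible because, for Srrm2 hKO against WT, the libraries are not tied to labelled samples, so that planned comparison and its replicate block were not run. High and low cells were compared within each library and the 4 ratios are given side by side, with no test over libraries of unknown group. The values below pool the counts of all libraries. The pooled log2 ratios were 0.77 for the 52 other p53 targets, -0.36 for S genes, -0.40 for G2/M genes, -0.71 for the naive panel and -0.34 for the formative panel, with 360 genes called higher and 47 lower and a ratio of median UMIs of 0.812. Of 148 alternative values, 52 stayed, 95 moved and 1 reversed. A value stayed if it was within counting error, a count of genes if it was within 1.5 times. The ratio of median UMIs stayed if it was within the range of the 4 libraries, as 11 of the 52 were. With a library left out, that ratio lies within this range by construction. The cause of the moves was not tested except where the alternative itself sets it.

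The other p53 targets stayed above 0 in every alternative run. They were at 0.91 in the highest 2% of cells, 0.64 in the highest 10%, 0.66 after thinning to 5000 UMIs, 0.81 over all barcodes, 0.78 without cells over 2 times the median UMIs, 0.61 within 10 equal classes of the naive panel share, 0.65 without keratin-high cells, 0.66 within 10 equal classes of the S and G2/M share, 0.74 with cells chosen without Ccng1, 0.79 as a mean over cells and 0.78 with median-of-ratios size factors. Leaving out each library gave 0.65 to 0.83.

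Genes called higher numbered 735 under a lower threshold than 1.5-fold, 165 at 2-fold, 648 at a minimum of 50 counts, 1284 with 1 count in each class, 544 in the highest 2% and 95 after thinning, which holds fewer counts. Genes called lower numbered 266, 3, 63, 75, 106 and 7 under the same settings. They numbered 12 in the highest 10%, 25 within classes of the naive share, 28 without keratin-high cells, 24 within classes of the S and G2/M share and 30 with cells chosen without Ccng1. Leaving out each library gave 408 to 511 higher and 53 to 152 lower, the last without library 1. Because a call has to hold in every library, leaving a library out can only keep or raise these numbers.

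S genes were at -0.58 in the highest 2%, -0.22 in the highest 10%, -0.32 after thinning, -0.43 over all barcodes, -0.22 within classes of the naive share, -0.12 without keratin-high cells and -0.11 within classes of the S and G2/M share. G2/M genes were at -0.60, -0.26, -0.33, -0.45, -0.21 and -0.15 in the first 6 of these, at -0.38 with cells chosen without Cdkn1a and at -0.42 as a mean over cells. They reversed to 0.025 within classes of the S and G2/M share, which holds only the sum of both lists about level. Leaving out each library gave -0.45 to -0.16 for S genes and -0.50 to -0.19 for G2/M genes, the smallest differences being those without library 3.

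The naive panel was at -0.90 in the highest 2%, -0.55 in the highest 10%, -0.52 after thinning, -0.019 within classes of its own share, -0.31 without keratin-high cells, -0.50 within classes of the S and G2/M share, -0.61 without Ccng1 in the choice and -0.59 as a mean over cells. The formative panel was at -0.59 in the highest 2%, -0.18 in the highest 10%, -0.43 over all barcodes, -0.52 within classes of the naive share, -0.089 without keratin-high cells, -0.087 within classes of the S and G2/M share, -0.29 and -0.41 with cells chosen without Cdkn1a and without Ccng1, and -0.37 as a mean over cells. Leaving out each library gave -1.06 to -0.44 for the naive panel and -0.47 to -0.15 for the formative panel, with library 3 again giving the smallest differences when omitted.

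The ratio of median UMIs was 0.755 in the highest 2% and 0.652 over all barcodes, and 0.769 to 0.854 with each library left out. Held-out genes, at 3.57 (Cdkn1a), 2.94 (Mdm2), 2.25 (Ccng1), 3.04 (Phlda3) and 2.84 (Trp53inp1), were at 3.07, 2.59, 1.90, 2.49 and 2.35 after thinning, and at 2.97, 2.47, 1.93, 2.72 and 2.52 in the highest 10%. Within classes of the naive share, Cdkn1a, Mdm2, Ccng1 and Phlda3 were at 3.02, 2.68, 1.95 and 2.57.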

Other observations

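Transcripts that stay in the nucleus were higher in high cells of every library, and as a list past 1.5-fold in library 3 alone. The nuclear RNAs Malat1, Neat1, Kcnq1ot1 and Meg3 summed to 6325, 6489, 7357 and 8902 CPM in high and 4432, 4822, 4437 and 5938 CPM in low cells of libraries 1 to 4, with log2 ratios of 0.51, 0.43, 0.73 and 0.58, and 0.44, 0.39, 0.69 and 0.54 without keratin-high cells. Malat1 gave most of the sum, at 5784, 5694, 6883 and 8026 CPM in high and 3821, 4006, 3771 and 5015 CPM in low cells. Meg3, an imprinted noncoding RNA, went the other way, with -0.42, -0.17, -0.87 and -0.21. High cells also had lower total UMI counts, and the part of this in the nuclear RNA values was not tested.

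Housekeeping lists were nearly level. The 12 ribosomal protein genes had list ratios of 0.07, 0.18, -0.21 and 0.14, and 0.08, 0.20, 0.07 and 0.17 without keratin-high cells, with Rps27a at 0.09, 0.23, -0.28 and 0.16 and Rpl23 at 0.06, 0.20, -0.16 and 0.15. The mitochondrially encoded genes had -0.04, 0.13, -0.26 and -0.08, with mt-Co2 at -0.05, 0.16, -0.25 and -0.07 and mt-Co3 at 0.04, 0.28, -0.43 and 0.00. The speckle list of Srrm2, Srrm1, Son and Sf3b1 had 0.00, -0.05, -0.18 and -0.01, with Srrm1 at 0.01, -0.12, -0.48 and -0.08. The Y-linked genes summed to 145, 123, 38.0 and 32.7 CPM in high and 146, 122, 40.2 and 36.1 CPM in low cells. Eif2s3y was at 100.3, 84.8, 22.5 and 24.5 CPM in high cells and Ddx3y at 30.9, 20.9, 11.6 and 4.35 CPM.

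Cells in the highest 5% of a library by the keratin and contractile list held other p53 targets above the level of low cells in every library. Low cells were chosen for a low share of the 5 p53 targets, so other groups also lay above them. The 52 targets summed to 2977, 3542, 4451 and 4112 CPM in the cells highest in the keratin list, log2 ratios of 0.50, 0.33, 0.97 and 0.49. Of these cells, 43 of 406 (10.6%), 42 of 426 (9.86%), 197 of 395 (49.9%) and 58 of 374 (15.5%) were high cells. Cells in the highest 5% by metallothioneins had log2 ratios of 0.12, 0.07, 0.13 and 0.05 over the same low cells. Those in the lowest 5% by S and G2/M genes had 0.36, 0.30, 1.04 and 0.36.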
